A study of Mus musculus with 24 samples.

Results

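The plasminogen activators *Plau* and *Plat*, the receptor *Plaur*, the serpins *Serpine2* and *Serpinf1* and the serine protease *Prss23* were followed in brown and white fat precursor cells before and during differentiation, with and without silencing of the lincRNA *H19*. These are 6 genes of the 49452 in the table. They were taken by symbol, and the set was put together because the levels of *Prss23* and *Serpine2* stand out in these data. Values and differences of *Prss23* and *Serpine2* are therefore given as a description, with no test, and the other 4 genes were tested. All 6 were above an FPKM of 1 in each of the 24 libraries, so that none was lost to the filter on low values.

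Plasminogen activators are serine proteases that cut the circulating zymogen plasminogen into plasmin, which in turn degrades fibrin and other proteins of the extracellular matrix. Urokinase (*Plau*) acts at the cell surface, where it is held by a membrane-anchored receptor (*Plaur*), and tissue-type activator (*Plat*) acts mainly on fibrin. Serpins trap their target proteases in inactive complexes. Protease nexin-1 (*Serpine2*) inhibits thrombin and both activators. *Serpinf1* encodes PEDF, a secreted serpin without inhibitory activity released by fat cells and their precursors, and *Prss23* encodes a secreted protease of the trypsin family.

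Stromal vascular fraction (SVF) cells, the mixed cells left when mature adipocytes are removed from fat tissue, came from interscapular BAT and perigonadal visceral WAT (vWAT) of male C57BL/6 mice 6 to 8 weeks old. They were nucleofected with 1 siRNA against *H19* (siH19) or with a non-targeting siRNA (siCtrl) and sequenced at confluence (d0) or on day 3 of differentiation (d3), which gave 8 groups of 3 libraries. All d3 cells had been induced with insulin, dexamethasone and rosiglitazone, to which IBMX was added for vWAT cells and indomethacin and triiodothyronine for BAT cells. Whether BAT cells received IBMX too is open, since the sample labels list it for both depots and the study's methods for white fat cells alone. BAT cells then went on with triiodothyronine and vWAT cells with rosiglitazone, and the libraries of each depot carry a series name of their own. Depot, medium and library series thus cannot be told apart. BAT of several mice could be pooled where cells were few, with dispase added to its digestion. The sources used here do not say whether the 3 cultures of a group came from separate mice, so that p-values measure the spread between these cultures, which may be technical.

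*H19* was left at 3.35% (BAT d0), 15.3% (BAT d3), 10.3% (vWAT d0) and 6.15% (vWAT d3) of its siCtrl mean. That siCtrl mean differed between depots, at 130 (d0) and 89.8 FPKM (d3) in BAT and 11.7 and 8.59 FPKM in vWAT. The siH19 BAT cells at d3, at 13.7 FPKM, thus still had more *H19* than siCtrl vWAT cells. Equal percentages therefore do not mean an equal loss of *H19* in the 2 depots. Libraries of a group correlated with r = 0.988 to 0.991 across genes, none stood apart, and between 12311 and 13125 genes had at least 1 FPKM in a library. The number of reads per library is unknown. Relative depth, read from the steps between low values, was 0.852 to 0.992 for BAT and 1.008 to 1.146 for vWAT libraries. Adipocyte markers rose from d0 to d3 in both depots (6 of 6 in siCtrl cells of each). *Ucp1*, which defines brown adipocytes, had a mean of 12.1 FPKM in siCtrl BAT cells at d3 and was listed at 0 in every vWAT library. The endothelial markers *Pecam1*, *Cdh5*, *Kdr*, *Tek*, *Emcn* and *Vwf* were each below a mean of 5 FPKM in every group.

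FPKM are divided by gene length, so levels can be set side by side. *Serpinf1* was the most abundant of the 6 in every group, with means from 629 FPKM (siCtrl vWAT d3) to 2260 FPKM (siH19 BAT d0). *Prss23* ranged from 62.8 to 418 FPKM, *Serpine2* from 86.2 to 160.2 FPKM, *Plaur* from 2.98 to 135 FPKM, *Plat* from 4.31 to 109 FPKM and *Plau* from 1.42 to 89.9 FPKM. The lowest mean was found in siCtrl BAT cells at d3 for 5 of the genes, and for *Serpinf1* in siCtrl vWAT cells at d3. *Serpine2* stood apart by its narrow range, in which the 24 libraries lay between 80.2 and 170.5 FPKM.

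**Figure D1:**
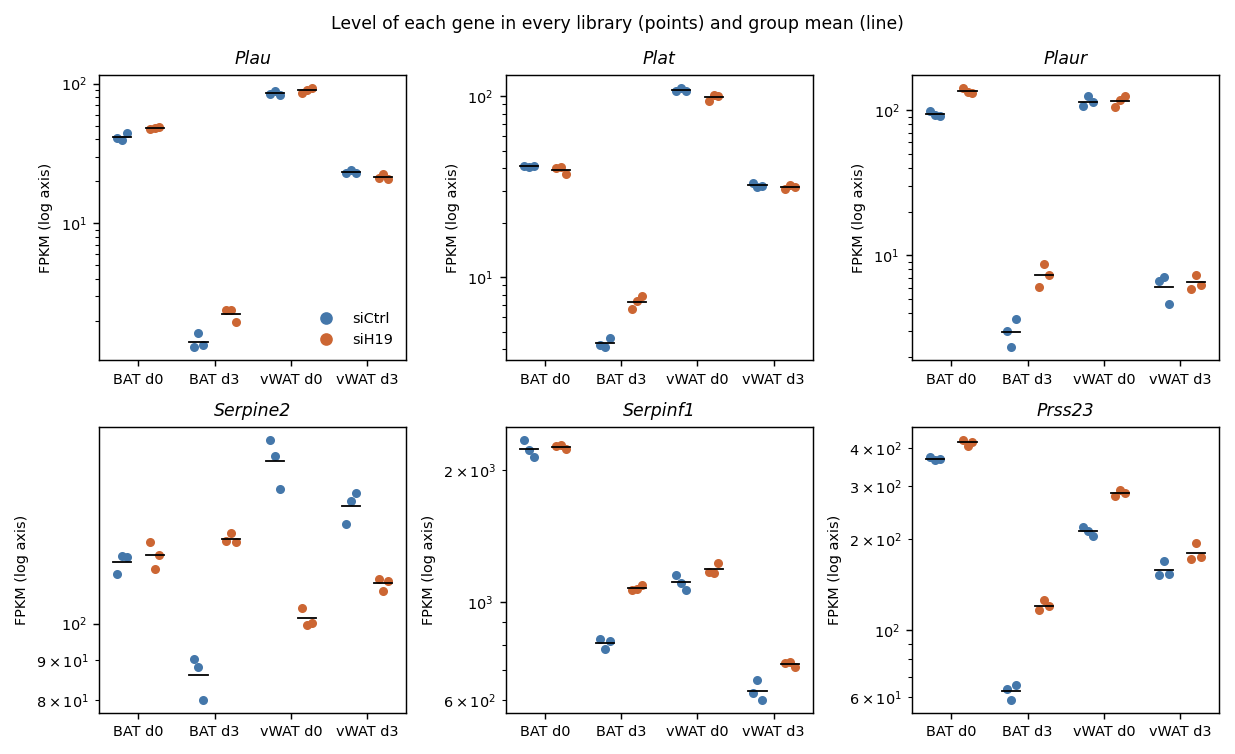
Level of each gene in FPKM (log axis, a separate range for each panel) in the 24 libraries, grouped by depot and day, with siCtrl in blue and siH19 in orange. Points are libraries and lines are group means; in BAT at d3 the siH19 points of all 6 genes lie above the siCtrl points, and for *Serpine2* in vWAT they lie below them on both days.

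The question of the series is what *H19* does in fat cells. For all 4 tested genes the widest difference between siH19 and siCtrl was in BAT cells at d3. There all 4 were called higher after *H19* silencing, and for each the 3 siH19 libraries lay above the 3 siCtrl libraries. The libraries of *Prss23* and *Serpine2* were ordered in the same way. These genes were chosen for their values, so they are not counted against the shares below. A call required an adjusted p (limma, Benjamini-Hochberg over all genes tested) under 0.05 together with a 1.3-fold difference. By this rule 8.57% of the 12500 genes tested were called and 6.39% of those tested were called higher, and 24.2% of those tested had siH19 libraries that all lay above the siCtrl libraries. After a median-ratio scaling of the libraries, the called genes split into 600 higher and 458 lower, against 799 and 272 in the deposited scale. A rise in such bulk samples can mean more RNA per cell or more cells of a type, which cannot be told apart.

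The receptor *Plaur* had the largest difference of the tested genes. Its level was 2.99, 2.32 and 3.62 FPKM in the siCtrl BAT cultures at d3 and 6.04, 8.70 and 7.35 FPKM in the siH19 cultures. The highest siCtrl library was thus well below the lowest siH19 library, and the means, 2.98 ± 0.652 and 7.36 ± 1.33 FPKM (SD, n = 3 each), were 2.47-fold apart. On the log2(FPKM + 1) scale, where changes of low genes come out too small, *Plaur* rose by 1.07 ± 0.17 (SE, limma adjusted p = 0.00876).

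*Plat* was measured at 4.21, 4.08 and 4.63 FPKM in siCtrl and at 6.70, 7.41 and 7.84 FPKM in siH19 cells. The groups were well separated, and *Plat* rose 1.70-fold (log2 difference 0.65 ± 0.09, limma adjusted p = 0.00611). *Plau* was near the filter at 1.29, 1.64 and 1.33 FPKM in siCtrl and 2.38, 2.37 and 1.95 FPKM in siH19 cells. Its difference of 0.42 ± 0.11 just passed the threshold (limma adjusted p = 0.047). The *Plau* call was lost when any 1 of the 6 libraries was left out, and also with a pseudocount of 0.1, without the filter, after scaling and with a replicate block, with adjusted p up to 0.125 over these alternatives. Both activators thus stayed far below their d0 levels in all 6 of these libraries.

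*Serpinf1* was at 826, 782 and 816 FPKM in siCtrl and at 1068, 1071 and 1095 FPKM in siH19 BAT cells at d3. Spread within the groups was small (SD 23.2 and 15.04 FPKM), and *Serpinf1* rose 1.33-fold (log2 difference 0.42 ± 0.03, limma adjusted p = 0.00197). After scaling, the difference was 0.35 and fell under the fold limit. The other serpin, *Serpine2*, had 90.1, 88.2 and 80.2 FPKM in siCtrl and 127, 129.9 and 127 FPKM in siH19 cells, a log2 difference of 0.57 ± 0.05. For *Prss23* the libraries were at 63.8, 58.8 and 65.7 FPKM in siCtrl and at 116, 125 and 120.1 FPKM in siH19 cells. Its means were 1.92-fold apart (log2 difference 0.93 ± 0.06), next to *Plaur* the widest of the 6.

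Markers of cell types differed in the same BAT libraries at d3. Precursor or stromal markers rose in 4 of the 5 tested, and the summed level of that list was 709 to 822 FPKM in siCtrl and 1065 to 1181 FPKM in siH19 libraries. Of the mural or smooth muscle markers 2 of 4 rose (*Acta2* and *Tagln*), and their sum went from 438 to 596 FPKM up to 1024 to 1231 FPKM. All 4 brown adipocyte markers fell (sum 467 to 538 against 290.4 to 319.7 FPKM), and 2 of 4 macrophage markers fell (sum 126 to 158 against 79.2 to 90.5 FPKM). None of 6 general adipocyte markers (5 at an unadjusted p under 0.05 in limma), and none of the 2 endothelial and 1 mesothelial markers tested (0 at that p), was called. The adipocyte sum was 34118 to 35596 FPKM in siCtrl and 31102 to 33311 FPKM in siH19 libraries, the endothelial sum 3.67 to 5.28 against 3.51 to 5.48 FPKM, and the mesothelial sum 1.36 to 3.50 against 3.46 to 4.24 FPKM, with *Upk3b* listed at 0 in siH19 libraries. The part of these cell types in the differences of the 6 genes was not tested.

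**Figure D2:**
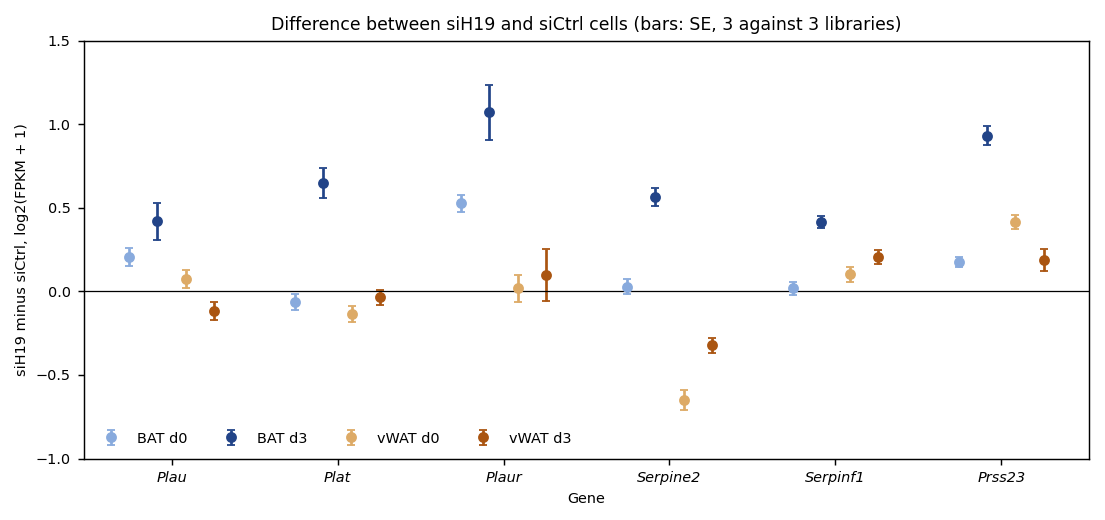
Difference between siH19 and siCtrl on the log2(FPKM + 1) scale for each gene, in BAT (blue) and vWAT (brown) cells at d0 (light) and d3 (dark), with SE bars from 3 against 3 libraries. The BAT d3 points of all 6 genes are above 0, from 0.42 to 1.07, and both vWAT points of *Serpine2* are below 0, at -0.65 and -0.32.

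Before differentiation, the receptor was the single gene of the 4 tested that was called in BAT cells. *Plaur* was at 97.9, 92.6 and 90.3 FPKM in siCtrl and at 143, 133 and 131 FPKM in siH19 cells at d0. It rose 1.45-fold (log2 difference 0.53 ± 0.05, limma adjusted p = 0.0158), where calls were made for 1.94% of all genes tested. Its call was lost with a replicate block and when any siCtrl library or siH19 library 3 was left out (adjusted p up to 0.0742). *Plau* (0.21 ± 0.05, adjusted p = 0.092), *Plat* (-0.06 ± 0.05, adjusted p = 0.527) and *Serpinf1* (0.02 ± 0.04, adjusted p = 0.841) were not called by limma. *Prss23* had a log2 difference of 0.18 ± 0.03, with siH19 libraries of 407 to 426 FPKM above siCtrl libraries of 366 to 374 FPKM, an order that 10.6% of all genes showed. *Serpine2* overlapped between the groups at 0.03 ± 0.04.

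Adipocyte markers moved in the same BAT libraries at d0. Of 6, 5 fell (median log2 difference -0.87, *Adipoq* -1.30 and *Fabp4* -0.89), and their sum was 3130 to 3402 FPKM in siCtrl and 1581 to 2111 FPKM in siH19 libraries. Of 5 macrophage markers *Lyz2* fell (-0.63), with a sum of 129 to 162 against 98.6 to 99.0 FPKM, and the 1 mesothelial marker tested, *Krt19*, rose (0.68). No precursor or stromal (1 of 6 at an unadjusted p under 0.05 in limma), mural (5 of 6) or endothelial (0 of 4) marker was called. The mural sum was 3074 to 3357 FPKM in siCtrl and 3552 to 3880 FPKM in siH19 libraries. The part of these cell types in the *Plaur* difference was not tested.

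In vWAT cells none of the 4 tested genes was called at d0, where 1.53% of all genes were called, or at d3, where 0.0305% were. At an unadjusted p under 0.05 in limma there was 1 of the 4 on each day. *Plaur* did not separate at all: its siH19 and siCtrl means were 116 and 115 FPKM at d0 and 6.52 and 6.09 FPKM at d3. *Plau* and *Plat* differed by 0.07 ± 0.05 and -0.14 ± 0.05 at d0 and by -0.12 ± 0.05 and -0.04 ± 0.05 at d3. *Serpinf1* was higher in all 3 siH19 libraries on both days, as were 8.36% and 7.67% of all genes, without passing the test (0.10 ± 0.05, adjusted p = 0.316 at d0, and 0.20 ± 0.04, adjusted p = 0.310 at d3, limma).

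The direction of the *Serpine2* difference was the other way in vWAT. At d0 it was at 170.5, 162 and 148 FPKM in siCtrl and at 105, 99.7 and 100.2 FPKM in siH19 cells, so that the siCtrl mean was 1.58-fold the siH19 mean (log2 difference -0.65 ± 0.06). At d3 the libraries were at 134, 143 and 146 FPKM in siCtrl and at 114, 109.96 and 113 FPKM in siH19 cells (-0.32 ± 0.04). On both days every siH19 library lay below every siCtrl library, as it did for 16.2% and 8.57% of all genes. *Prss23*, in contrast, was higher in siH19 vWAT cells as in BAT. Its libraries were at 219, 213 and 206 FPKM in siCtrl and at 277, 289.9 and 284 FPKM in siH19 cells at d0 (0.41 ± 0.04). At d3 they were at 152, 169 and 153 FPKM and at 172, 195 and 174 FPKM (0.19 ± 0.07), a narrow gap at which the highest siCtrl and lowest siH19 libraries nearly met.

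In the vWAT libraries, too, adipocyte markers were lower with siH19 at d0. Of 6, 5 fell (median -0.52, *Fabp4* -0.80 and *Plin1* -0.81), and their sum was 4043 to 4062 FPKM in siCtrl and 2399 to 2701 FPKM in siH19 libraries. Of 4 mural markers *Acta2* rose (0.59), with a sum of 1467 to 1656 against 1880.5 to 2282 FPKM. No precursor or stromal, macrophage, mesothelial or endothelial marker was called in limma (4 of 6, 2 of 6, 1 of 6 and 0 of 5 at an unadjusted p under 0.05). At d3 no marker of any list was called in vWAT cells, and 3 of 6 adipocyte, 1 of 5 macrophage and 1 of 6 mesothelial markers had an unadjusted p under 0.05 in limma. The part of these cell types in the *Serpine2* and *Prss23* differences was not tested.

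Whether the siH19 differences depended on depot or day was fitted as an interaction, called at an adjusted p under 0.05 in limma with no minimum fold. At d3 the siH19 difference was larger in BAT than in vWAT by 0.54 ± 0.11 for *Plau* (adjusted p = 0.0125), 0.68 ± 0.09 for *Plat* (adjusted p = 0.00211) and 0.98 ± 0.24 for *Plaur* (adjusted p = 0.0302), and by 0.21 ± 0.05 for *Serpinf1* (adjusted p = 0.0316). All 4 tested genes were thus called, against 10.5% of all genes, which split into 966 higher and 485 lower in BAT (674 and 733 after scaling). The calls of *Plau* and *Plat* held under all 17 alternatives. Those of *Plaur* and *Serpinf1* were each lost under 9 and 12 of them, with adjusted p up to 0.0741 and 0.0793. Without a test, the same difference between depots was 0.89 ± 0.07 for *Serpine2* and 0.74 ± 0.09 for *Prss23*. At d0 *Plaur* alone was called (0.51 ± 0.10, limma adjusted p = 0.0484, against 1.02% of all genes), and 15 of 17 alternatives lost that call (adjusted p up to 0.204).

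Within BAT, the siH19 difference was larger at d3 than at d0 for *Plat* (0.71 ± 0.09, limma adjusted p = 0.00145) and *Serpinf1* (0.40 ± 0.05, limma adjusted p = 0.00138), against 9.06% of all genes called. That background split into 1058 higher and 172 lower genes, and into 571 and 305 after scaling. *Plaur* (0.55 ± 0.18, adjusted p = 0.0933) and *Plau* (0.21 ± 0.11, adjusted p = 0.270) did not pass. Over 17 alternatives the *Plaur* value ranged from 0.42 to 0.75, with limma adjusted p from 0.0433 to 0.180. Of these, 15 left *Plaur* uncalled, and all 17 left *Plau* uncalled. For *Prss23* and *Serpine2* the difference between the days was 0.75 ± 0.06 and 0.54 ± 0.07, and after scaling 0.66 and 0.44. Within vWAT none of the 4 tested genes was called in limma (adjusted p from 0.249 to 0.906, with 1 at an unadjusted p under 0.05), where 1.73% of all genes were.

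All 4 tested genes fell from d0 to d3 in each depot with each siRNA, against 35.3% (siCtrl) and 29.8% (siH19) of all genes called lower in BAT and 23.9% and 24.5% in vWAT. These comparisons share their libraries with those between siRNAs, so that a low d3 level enters both. In siCtrl BAT cells *Plaur* fell from 90.3 to 97.9 FPKM at d0 down to 2.32 to 3.62 FPKM at d3, a 31.4-fold drop of the mean (log2 difference -4.58 ± 0.12, limma adjusted p = 1.64e-07). *Plau* fell 29.1-fold from 41.4 to 1.42 FPKM (-4.13 ± 0.08, limma adjusted p = 6.71e-08), and *Plat* 9.54-fold from 41.1 to 4.31 FPKM (-2.99 ± 0.06, limma adjusted p = 6.88e-08). No d0 library overlapped a d3 library for any of the 3, and 43.2% of all genes were lower at d3 without overlap.

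In vWAT the receptor fell nearly as far as in BAT, and the activators fell far less. *Plaur* dropped 18.8-fold in siCtrl vWAT cells, from 115 to 6.09 FPKM (-4.04 ± 0.14, limma adjusted p = 1.59e-06). *Plau* dropped 3.66-fold to 23.3 FPKM and *Plat* 3.37-fold to 32.3 FPKM. The difference between the depots in the change from d0 to d3 was called for all 4 tested genes, at -2.30 ± 0.09 for *Plau*, -1.27 ± 0.06 for *Plat*, -0.65 ± 0.07 for *Serpinf1* and -0.54 ± 0.20 for *Plaur*, which is the extra fall in BAT. As many as 53.0% of all genes were called in that test, and the call of *Plaur* (limma adjusted p = 0.0448) was lost under 12 of 17 alternatives, with adjusted p up to 0.101.

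*Serpinf1* fell 2.77-fold in siCtrl BAT cells, from 2234 ± 102 to 808 ± 23.2 FPKM, and 1.76-fold in siCtrl vWAT cells, from 1109 ± 44.7 to 629 ± 33.0 FPKM. It remained among the abundant transcripts of the differentiating cells, at rank 154 of all genes in BAT and 193 in vWAT. *Prss23* was at 370 FPKM at d0 and 62.8 FPKM at d3 in siCtrl BAT cells, a ratio of 5.89, but only at 213 and 158 FPKM in vWAT, a ratio of 1.35. *Serpine2* had the smallest difference of the 6 genes between the days in siCtrl cells of both depots, with a d0 mean 1.39-fold the d3 mean in BAT and 1.14-fold in vWAT. In siH19 cells its log2 difference between d3 and d0 was 0.07 ± 0.04 in BAT and 0.14 ± 0.04 in vWAT.

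Markers of several cell types fell over the same days, while adipocyte markers rose. In siCtrl BAT cells all 6 precursor or stromal markers fell (median -1.90, sum 3518 to 3829 FPKM at d0 and 709 to 822 FPKM at d3). All 6 mural markers (median -1.77, sum 3074 to 3357 and 438 to 596 FPKM) and 3 of 4 endothelial markers fell too. Of 5 macrophage markers 3 fell, but *Lyz2* did not (0.08, limma adjusted p = 0.570). The macrophage sum hardly moved (129 to 162 and 126 to 158 FPKM), but most of it was *Lyz2* (means 121 and 128 FPKM). In siCtrl vWAT cells 5 of 6 mesothelial markers fell (median -2.07, sum 195 to 224 and 53.8 to 62.4 FPKM). Precursor or stromal markers there split into 4 that fell and 1 that rose of 6 (median -0.67), and mural markers into 3 and 1 of 5 (median -0.55). Of the macrophage markers there, *Lyz2* (0.94) and *Adgre1* (0.40) rose, and *Cd68* (-0.57), *Csf1r* (-0.85) and *Ptprc* (-0.59) fell. Their sum was 276 to 308 FPKM at d0 and 463 to 505 FPKM at d3. The part of these cell types in the falls of the 6 genes was not tested.

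**Figure D3:**
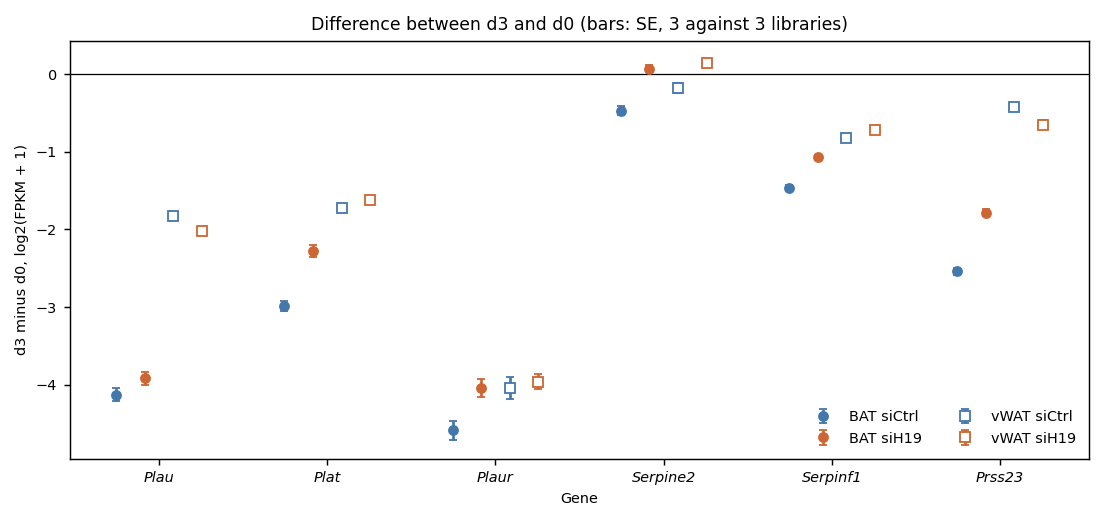
Difference between d3 and d0 on the log2(FPKM + 1) scale for each gene in BAT (filled circles) and vWAT (open squares), siCtrl in blue and siH19 in orange, with SE bars (3 against 3 libraries, hidden by the marker where small). *Plaur* lies at -3.96 or below in all 4 settings, *Plau* and *Prss23* lie much lower in BAT than in vWAT, and *Serpine2* stays between -0.47 and 0.14.

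Between the depots, siCtrl BAT cells had less of both activators than siCtrl vWAT cells. At d0 the *Plau* mean was 41.4 ± 2.27 FPKM in BAT and 85.3 ± 3.09 FPKM in vWAT (-1.03 ± 0.05, limma adjusted p = 1.88e-05), and that of *Plat* 41.1 ± 0.266 and 109 ± 2.49 FPKM (-1.38 ± 0.04, limma adjusted p = 1.14e-06). At d3 the gap had widened to 16.4-fold for *Plau* and 7.49-fold for *Plat*. *Plaur* was lower in BAT by 0.29 ± 0.06 at d0, under the fold limit, and by 0.83 ± 0.18 at d3, where it was called (limma adjusted p = 0.0062). *Serpinf1* was 2.01-fold higher in BAT at d0 (1.01 ± 0.05, limma adjusted p = 1.20e-05), and 1.29-fold at d3, under the fold limit although the adjusted p was 0.000515. *Prss23* switched order with the day, from 370 against 213 FPKM at d0 to 62.8 against 158 FPKM at d3, and *Serpine2* was lower in BAT on both days (-0.42 ± 0.06 and -0.70 ± 0.06).

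Of the 4 tested genes 3 were called between depots on each day, against 31.2% of all genes at d0 and 48.6% at d3. Scaling moved the median of all genes in favour of BAT by 0.11 at d0 and 0.16 at d3 and changed the split of called genes from 1343 higher and 2753 lower to 1806 and 2005 at d0, and from 2162 and 4216 to 3080 and 3129 at d3. None of the 6 genes changed direction between the depots with scaling, and *Serpinf1* then passed the fold limit at d3, at 0.55. The *Serpine2* difference shrank with scaling to -0.30 at d0 and -0.52 at d3. That of *Prss23* moved from 0.79 to 0.92 at d0 and from -1.32 to -1.14 at d3. Markers of cell types differed with the depot as well. At d0 all 6 mesothelial markers were lower in BAT (*Upk3b* was listed at 0 in siCtrl BAT cells and had a mean of 38.0 FPKM in siCtrl vWAT cells), 5 of 6 macrophage markers were lower (median -0.83) and 5 of 6 mural markers were higher (median 0.75). Precursor or stromal markers split at d0. *Thy1* (2.60), *Ly6a* (0.76) and *Col1a1* (0.60) were higher in BAT, and *Pdgfra* (-1.18) and *Cd34* (-1.94) lower. At d3, 5 of 6 mesothelial and 5 of 5 macrophage markers (median -1.44) were lower in BAT. So were 4 of 6 precursor or stromal (median -1.03) and 4 of 5 mural markers (median -1.06). From these lists *Thy1* (1.26) and the mural marker *Cspg4* (1.41) went the other way. All 6 adipocyte and 4 brown adipocyte markers were higher in BAT. The part of these cell types in the depot differences was not tested.

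*Prss23* (GRCm38 chr7:89507783-89527187, minus strand) overlaps a gene on the other strand, *Prss23os* (chr7:89510007-89511873, plus strand). The exons of both share 864 bases, 54.3% of the exonic bases of *Prss23os* and 22.9% of those of *Prss23*. *Prss23os* was listed at 2.24 to 2.76 times the FPKM of *Prss23* in every library, for example at 151, 162 and 156 FPKM in siCtrl and 282, 287 and 269 FPKM in siH19 BAT cells at d3. Its siH19 difference there was 0.83 ± 0.04, next to 0.93 ± 0.06 for *Prss23*. The sample labels name a library kit that marks strand and the study's methods 1 that is not described as such, and whether the counting used strand is not given in the sources used here, so that reads of the pair cannot be told apart and both levels are uncertain.

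**Figure D4:**
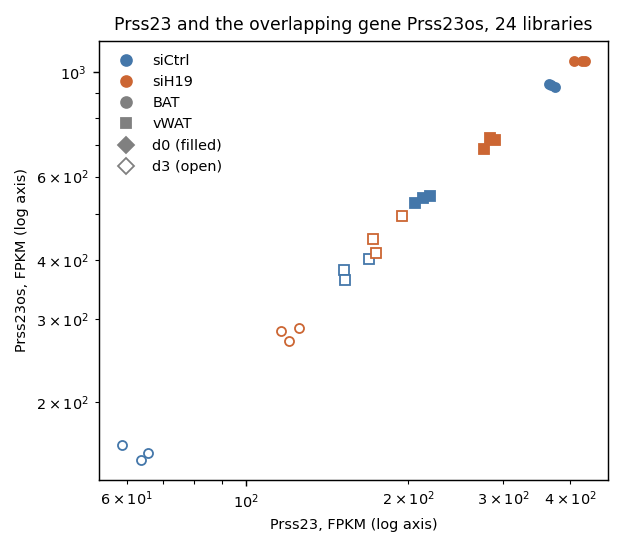
FPKM of *Prss23os* against FPKM of *Prss23* in the 24 libraries (both axes log), with colour for siRNA, shape for depot and fill for day. All points lie close to 1 line, with 2.24 to 2.76 FPKM of *Prss23os* for 1 FPKM of *Prss23*, from siCtrl BAT cells at d3 at the lower left to siH19 BAT cells at d0 at the upper right.

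The other members overlap no gene on either strand. They lie at chr14:20836662-20843388 (*Plau*, plus), chr8:22757727-22782844 (*Plat*, plus), chr7:24462484-24475968 (*Plaur*, plus), chr1:79794197-79861180 (*Serpine2*, minus) and chr11:75409769-75422701 (*Serpinf1*, minus). Promoter sequence was matched for 4 of the 6, in the RefSeq annotation of GRCm38.p6, and the 250 bases before the start were searched on both strands for an AP-1 site (TGANTCA), a TEAD core (GGAATG), an Sp1 GC box (GGGCGG) and a TATA box (TATAAA). The windows of *Plaur*, *Serpine2* and *Prss23* are shown because these genes had, in turn, the deepest fall with differentiation, opposite siH19 differences in the 2 depots, and the same siH19 direction in both. Each is given 5′ to 3′ in the direction of the gene, with matches in capitals, at chr7:24462233-24462482 (plus), chr1:79858666-79858915 (minus) and chr7:89527188-89527437 (minus):
Plaur: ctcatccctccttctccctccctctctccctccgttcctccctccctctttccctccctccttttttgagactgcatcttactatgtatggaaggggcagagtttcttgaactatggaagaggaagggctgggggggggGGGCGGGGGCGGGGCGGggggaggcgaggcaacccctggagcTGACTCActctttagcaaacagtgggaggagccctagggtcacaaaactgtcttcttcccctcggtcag
Serpine2: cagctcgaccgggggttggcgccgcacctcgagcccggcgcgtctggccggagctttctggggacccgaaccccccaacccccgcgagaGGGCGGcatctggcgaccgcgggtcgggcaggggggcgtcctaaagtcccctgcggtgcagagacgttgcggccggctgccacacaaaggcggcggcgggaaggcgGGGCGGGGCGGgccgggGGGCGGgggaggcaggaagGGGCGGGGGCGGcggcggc
Prss23: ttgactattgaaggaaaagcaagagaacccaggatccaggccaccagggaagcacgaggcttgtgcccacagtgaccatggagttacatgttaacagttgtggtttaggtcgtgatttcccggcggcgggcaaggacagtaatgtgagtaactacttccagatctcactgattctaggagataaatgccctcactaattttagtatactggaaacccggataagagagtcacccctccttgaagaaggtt

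The *Plaur* window held 1 AP-1 match, 69 to 63 bases before the start and alike on both strands. It also held 3 GC boxes between 111 and 95 bases, of which those at 105 to 100 and 100 to 95 overlap. *Serpine2* held 6 GC boxes, the nearest 13 to 8 bases before a RefSeq start that lies 2515 bases from the gene start in the table. In the *Prss23* window shown and in that of *Serpinf1* (not shown) none of these letters was found. RefSeq lists 7 promoters for *Prss23*, of which the one at the gene start in the table is shown, and of the other 6 windows 4 held a GC box, 2 an AP-1 match and 0 a TEAD core or a TATA box. Among 32851 promoter windows of the same length, an AP-1 match occurred in 6.75%, a TEAD core in 12.6%, a GC box in 32.7% and a TATA box in 12.4%. A match describes the letters only.

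Other genes of the plasminogen and pericellular clotting system were counted from a list of 19 that leaves out the members. This list and those of the next paragraphs were chosen with earlier results of these data known. In siH19 BAT cells at d3 the median log2 difference was 0.48 against 0.05 over all genes. Against 6.39% of all genes called higher there, 6 of the 11 tested rose and none fell. They were the endothelial protein C receptor *Procr* (0.99, from 2.17 to 5.30 FPKM), the collagen receptor *Mrc2*, also known as the urokinase receptor-associated protein (0.79), the thrombin receptor *F2r* (0.75), tissue factor *F3* (0.48), *Anxa2*, a plasminogen-binding annexin (0.42), and its partner *S100a10* (0.41). In vWAT at d3 none of 15 was called in limma, with 8 at an unadjusted p under 0.05. At d0 none of 13 was called in BAT in limma (9 at an unadjusted p under 0.05) and 1 of 15 in vWAT, *F3* (0.52). From d0 to d3 in siCtrl cells, 10 of 13 fell and 1 rose in BAT, and 8 of 15 fell and 4 rose in vWAT. In siH19 cells 9 of 12 fell and 2 rose in BAT, and 9 of 15 fell and 4 rose in vWAT. Over all genes, 35.3% fell and 29.9% rose in siCtrl BAT cells, and 23.9% and 26.3% in siCtrl vWAT cells. With siH19 these shares were 29.8% and 30.8% in BAT, and 24.5% and 28.2% in vWAT. Plasminogen itself, *Plg*, a product of the liver, was listed at 0 in all libraries of every group except siCtrl BAT cells at d3.

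Of 26 other serpins, 9 were tested in siH19 BAT cells at d3. Against 6.39% of all genes called higher there, 5 of the 9 rose and none fell (median 0.42). They included *Serpina3n* (0.77, from 249 to 425 FPKM), a secreted protease inhibitor, *Serpina3m* (0.52), the intracellular *Serpinb6a* (0.51) and the collagen chaperone *Serpinh1* (0.44). The complement inhibitor *Serping1* was not called (0.00 ± 0.04, 76.2 and 76.3 FPKM). Of the 14 tested in vWAT at d3 none was called in limma, with 6 at an unadjusted p under 0.05. At d0, 1 of 11 rose in BAT and none fell, although the median was -0.24 against -0.03 over all genes and 7 of the 11 had an unadjusted p under 0.05 in limma. *Serping1*, for example, had means of 507 FPKM in siCtrl and 399 FPKM in siH19 cells without being called. In vWAT 1 of 13 fell at d0. Over differentiation of siCtrl cells 3 of 11 rose and 6 fell in BAT, and 6 of 15 rose and 8 fell in vWAT, and *Serpina3n* rose from 89.4 to 249 FPKM in BAT and from 173 to 1231 FPKM in vWAT. With siH19, 4 of 12 rose and 5 fell in BAT, and 6 of 15 rose and 8 fell in vWAT. Over all genes, 29.9% rose in siCtrl and 30.8% in siH19 BAT cells, and 26.3% and 28.2% in vWAT cells, beside the shares that fell given above.

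Of 34 other secreted or membrane serine proteases, the class to which *Prss23* belongs, 12 were tested in siH19 BAT cells at d3. Against 6.39% of all genes called higher there, 4 of the 12 rose and none fell (median 0.33). These were *Klk8*, a kallikrein-related protease (1.40, from 0.671 to 3.35 FPKM), the secreted proteases *Htra1* (0.48) and *Htra3* (0.47), and *Pcsk6*, a proprotein convertase (0.47). *Klk8* was near the floor in siCtrl cells, at 0.576, 1.09 and 0.345 FPKM. It passed the filter only through its siH19 libraries, so it could hardly be counted other than as a rise. The complement protease *C1s1* was not called there (0.33, limma adjusted p = 0.28). In vWAT none of 15 was called at d3 in limma (3 at an unadjusted p under 0.05), and 1 of 14 rose at d0. In BAT at d0, 1 of 14 rose (*Klk8*, 0.63) and 1 fell (*Htra1*, -0.45). From d0 to d3 in siCtrl cells, 10 of 13 fell and 2 rose in BAT, and 8 of 15 fell and 2 rose in vWAT. In siH19 cells 10 of 14 fell and 3 rose in BAT, and 7 of 15 fell and 2 rose in vWAT. Beside these counts, 35.3% of all genes fell and 29.9% rose in siCtrl BAT cells, and 23.9% and 26.3% in siCtrl vWAT cells. The siH19 shares were 29.8% and 30.8% in BAT, and 24.5% and 28.2% in vWAT.

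Across the 24 libraries, which share their 8 groups so that r mostly reflects differences between groups, *Plau* and *Plat* had the most similar patterns of the 6 genes (Pearson r = 0.98 on the log2 scale) and *Serpine2* and *Serpinf1* the least (r = 0.06). The comparison covered 8939 named genes with a mean FPKM of at least 5, without Gm, Rik, clone or model symbols. Those most like *Plau* were *Thbd* (r = 0.996), *Irf2bpl* (0.995) and *Errfi1* (0.994), and those most like *Plat* were *Colec12* (0.993), *Marcksl1* (0.992) and *Prkcd* (0.991). *Plaur* was closest to *Tm4sf1* (0.996), *Itga5* (0.996) and *Wnt2* (0.996), and *Serpinf1* to *Cemip* (0.990), *Vim* (0.988) and *Prrx1* (0.987). Next to its overlapping gene (0.998), *Prss23* was closest to *Mfap5* (0.992), *Pdia5* (0.992), *Rhoj* (0.991) and *Crim1* (0.988). For *Serpine2* none of the named genes came near these values: the highest were *Cbx5* (0.745), *Alg5* (0.744), *Cenph* (0.736), *Galk2* (0.730) and *Kctd18* (0.727).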

How the data were processed

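RNA of 24 SVF cultures (poly-A libraries, 8 groups of 3) was measured. Groups and replicate numbers follow the sample labels, in which control libraries carry the letters siKO. The authors mapped the reads to GRCm38 with Tophat2, computed expression as FPKM with Cufflinks on the Ensembl annotation within QuickNGS and deposited the values as 1 table, without a stated unit. FPKM is the unit the authors name for these deposited data in the study, and library sums differ (710794 to 841456). The labels state paired-end and the study single-end reads. No column was left out (0 unused). FPKM are relative to library size, so that a rise of abundant genes lowers all others, and without counts no counting intervals can be given.

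Symbols came from the table for 20695 genes and by gene ID for others (49198 in all). Values were analysed as log2(FPKM + 1) with limma 3.58.1 in R 4.3.3, with an intensity trend, on the libraries of each comparison, keeping genes that reached 1 FPKM in 3 or more libraries. Adjusted p-values are Benjamini-Hochberg over all genes tested, and calls needed an adjusted p under 0.05 and a 1.3-fold change (interactions: no minimum fold). There were 10 comparisons of 2 groups and 5 interactions. The fit was tested on simulated data. The members and the gene and marker lists were chosen with earlier results of these data known. The text names the members, from each list the 3 genes with the highest mean FPKM and up to 4 called genes with the largest siH19 difference in BAT at d3, and the 3 or 5 genes most correlated with a member. A gene of the plasminogen system that this rule also named is not reported here and is not counted in the list. Markers named beside sums were chosen after their values were seen. Alternatives were a pseudocount of 0.1, no filter, median-ratio scaling, a replicate block, 1 fit on all 24 libraries, no minimum fold, and leaving out each library. Promoter sequences are from RefSeq (GRCm38.p6). Python 3.11.15 with pandas 2.3.3, numpy 2.4.6 and matplotlib 3.10.9 was used for summaries and plots.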

Additional observations from a re-analysis of the deposited data

Results flagged for a closer look

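Interaction tests singled out 11 differences between depots or days among the 4 tested genes (limma, adjusted p under 0.05). Over all genes, the depot by siRNA test called 10.5% at d3 and 1.02% at d0. The day by siRNA test in BAT called 9.06%, and the depot by day test in siCtrl cells 53.0%. The siH19 difference was larger in BAT than in vWAT cells at d3 by 0.54 for *Plau*, 0.68 for *Plat*, 0.98 for *Plaur* and 0.21 for *Serpinf1*, and at d0 by 0.51 for *Plaur*, on the log2(FPKM + 1) scale. In BAT cells it was larger at d3 than at d0 by 0.71 for *Plat* and 0.40 for *Serpinf1*. The change from d0 to d3 in siCtrl cells differed between BAT and vWAT by -2.30 for *Plau*, -1.27 for *Plat*, -0.54 for *Plaur* and -0.65 for *Serpinf1*. The *Plaur* calls held under only 8 (depot by siRNA, d3), 2 (depot by siRNA, d0) and 5 (depot by day) of 17 alternatives. That of *Serpinf1* for depot by siRNA at d3 held under 5 of 17. For *Serpine2* at d3 every siH19 library lay above the siCtrl libraries in BAT and below them in vWAT, a difference of 0.89 between the depots that was not tested.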

How the results depend on the processing

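Adjusted calls in the small siH19 comparisons depended on the processing. Over all genes, the count called in BAT at d0 was 245, against 35 without the filter, 518 with 1 fit on all 24 libraries, 395 without a minimum fold and 4 to 74 when 1 library was left out, and scaling split it into 100 higher and 133 lower instead of 78 and 167. In vWAT at d0 it was 200, against 65 without the filter, 385 with 1 fit and 37 to 122 with 1 library left out, and in vWAT at d3 it was 4, against 20 with 1 fit and 1 to 5. In BAT at d3 it was 1071, against 2023 without a minimum fold and 631 to 916 with 1 library left out, the lowest without siCtrl library 2. The interaction of depot and siRNA at d0 gave 140 genes, against 85 without the filter, 305 with 1 fit and 35 to 110 with 1 library left out. That at d3 gave 1451 (889 to 1432), the interaction of day and siRNA 1230 in BAT (801 to 1091) and 241 in vWAT (127 to 241). Between depots at d0, 6386 instead of 4096 genes were called without a minimum fold.

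Libraries with the same replicate number did not deviate together (r = -0.19 to 0.10, no comparison of 10 with every pair over 0.1, and 0 in which every library correlated best with its own number). The values thus showed no pairing by number. They cannot tell whether cultures of the same number shared mice or a preparation. With a replicate block the counts were 2 in BAT at d0, 859 in BAT at d3, 2 and 0 in vWAT at d0 and d3, and 81 for depot by siRNA at d0. Among the tested members the block ended the calls of *Plau* (siH19, BAT d3), *Plaur* (siH19, BAT d0, and 3 interactions) and *Serpinf1* (depot by siRNA at d3).

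Signs turned for small uncalled differences with 1 library left out. The difference of *Plaur* between siH19 and siCtrl then ranged from -0.0390 to 0.0848 in vWAT at d0 (negative, also at -0.0327, in 2 of 6 cases) and from -0.0647 to 0.198 at d3. Its day by siRNA interaction in vWAT ranged from -0.0825 to 0.180, and the *Serpinf1* difference in BAT at d0 from -0.0139 to 0.0517. The cause was not tested. *Plat* kept its direction and side of the threshold in all comparisons and alternatives. Read depth is unknown, and *Plau* and *Plaur* at d3 in BAT, at a few FPKM, rest on the fewest reads.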
